A study of Mus musculus with 4 samples.

Results

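The genes examined here are 10 members of the BCL2 family, the proteins that decide whether the mitochondrial outer membrane is opened during apoptosis. They were chosen by name, 7 that promote cell death (*Pmaip1*, *Bbc3*, *Bcl2l11*, *Bid*, *Bad*, *Bax* and *Bak1*) and 3 that oppose it (*Bcl2*, *Bcl2l1* and *Mcl1*). All 10 were among the 24062 genes with read counts, and all 10 were among the 15762 genes that had enough reads to be tested. The RNA came from retinas of E13.5 mouse embryos on a C57BL/6 129 mixed background, in 4 libraries, 2 labelled WT with a wild type genotype and 2 labelled Nrf1-CKO. Nrf1-CKO retinas were *Nrf1* f/f;*Six3-Cre*, in which Cre under Six3 control removes exon 4 of *Nrf1*, a regulator of mitochondrial biogenesis, in retinal progenitor cells. Whether the WT embryos carried Cre or a floxed allele is not given in the sources used here. Six3-Cre acts earliest in the central retina, so cells that still carry the intact gene may remain in the mutant tissue. Each library was a pool of 18 retinas (9 pairs) from several littermates, so a library is a pool and not an animal, and p-values measure the spread between pools. The comparison asks which family genes had a different RNA level when *Nrf1* was removed from progenitors.

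BCL2 family proteins act through short BCL2 homology (BH) regions. BAX and BAK1 are the effectors that form pores in the outer mitochondrial membrane and let cytochrome c out to activate caspases. BCL2, BCL-XL (the main product of *Bcl2l1*) and MCL1 hold the effectors in check, and the BH3-only proteins NOXA (*Pmaip1*), PUMA (*Bbc3*), BIM (*Bcl2l11*), BID and BAD respond to stress by occupying the groove of these guardians or by activating the effectors. In the developing retina, the family is known for setting how many newly born neurons, retinal ganglion cells (RGCs) among them, survive. Transcription of *Pmaip1*, *Bbc3* and *Bax* is known to be induced by p53, that of *Bcl2l11* and *Bbc3* by FOXO factors, whereas BID and BAD are known mainly for control after translation, by cleavage and by phosphorylation.

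The promoter sequences of 9 members were read from RefSeq on GRCm38.p6 as 15 windows, each from 250 bases before to 50 bases after an annotated transcript start, and *Pmaip1* was not analysed at the sequence level. Every motif was searched on both strands. The NRF1 element, the palindrome bound by the NRF1 protein, was found in 0 of these 15 windows, against 4.6% of 32851 windows of all genes. The p53 response element, given here by its name alone, was in 0 of 15 windows, as were the cAMP response element TGACGTCA and the CHOP-ATF4 element TGATGNAA, which 0.0731%, 1.79% and 3.97% of all windows held. The p53 pattern, an exact pair of half-sites, was in only 24 of 32851 windows, so a 0 in 15 cannot show whether these genes have p53 sites. The E2F element TTTCGCGC was in 1 window, of *Bcl2l1*, against 0.323% of all windows, and the GC box GGGCGG was in 10 of the 15 windows against 35.7%, the 5 without it being the 3 of *Bcl2l1*, that of *Bak1* and 1 of the 2 of *Bad*. The FOXO element GTAAACA was in 1 window of *Bcl2l11* and 1 of *Bbc3*, against 3.65% of all windows. These 2 stretches are shown because both genes encode BH3-only proteins and both had higher counts in the mutant. They run 5′ to 3′ on the strand of the gene, and the capitals mark the match, which lies 227 bases before the transcript start in *Bcl2l11*, outside any annotated gene, and 167 bases before a start in *Bbc3*, within the gene but in no annotated exon. A match of letters is a description and not a binding site, and a lack of matches in 15 windows does not show that sites are lacking.
Bcl2l11, chr2:128125801-128125827, plus strand: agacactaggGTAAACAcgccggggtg
Bbc3, chr7:16310084-16310110, plus strand: ctggcgggttTGTTTACaaacaatggg

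Depth was alike in the 4 libraries, between 74577660 and 85933945 reads counted on genes, which gave each member except *Pmaip1* at least 848 reads per library. *Nrf1* itself had 9052 and 7789 reads in WT and 8594 and 8284 in Nrf1-CKO, a log2 fold change of -0.03. A count over a whole gene can hardly show the loss of 1 exon, so this gene did not check the labels. The labelled tissue was present, as read from progenitor markers (*Ccnd1* and *Sfrp2* the most abundant). CPM are counts per 1000000 reads counted on genes, scaled between libraries with TMM factors. The progenitor markers summed to 8796 and 9452 CPM in WT and to less, 6924 and 7465, in Nrf1-CKO. Of these, 3 of 13 were called lower and 0 higher (0 also at an unadjusted p under 0.05, by DESeq2 and by edgeR's exact test). Markers of other cells and tissues differed between the groups in the same libraries as the family genes. All 14 tested of 15 lens genes were called higher, with summed levels of 180 and 501 CPM in WT and 10330 and 4235 in Nrf1-CKO. All 13 tested macrophage and microglia genes were called higher, with sums of 96.4 and 88.7 against 292 and 350 CPM. Of 12 RGC genes, 11 were called lower, with sums of 1973 and 2224 against 785 and 602 CPM. Of the other lists, 8 of 10 endothelial, 5 of 7 pigment epithelium, 7 of 11 periocular mesenchyme, 2 of 6 erythroid and 2 of 6 amacrine and horizontal cell genes were called higher. Called lower were 1 endothelial, 2 of 6 photoreceptor precursor and 3 of 6 amacrine and horizontal cell genes. Beside these counts, 12.8% of all tested genes were called higher and 8.04% lower. With at least 10 counts required in every library, 2 amacrine and horizontal cell genes were called lower. Some of these counts changed when 1 library was left out, with 4 mesenchyme genes called higher without WT replicate 2, 0 erythroid genes without WT replicate 1, 0 amacrine and horizontal cell genes without mutant replicate 1, and 1 photoreceptor precursor gene called lower without WT replicate 1 or mutant replicate 2. In a bulk sample, a different number of cells of a type and a different amount of RNA per cell cannot be told apart, and the part of these cells in the results below was not tested except where a value is given.

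Of the 10 members, *Pmaip1* and *Bbc3* rose in Nrf1-CKO retinas, by 14.3-fold and 1.93-fold. *Bcl2l11*, *Bak1* and *Bax* were higher by 1.28-fold, 1.26-fold and 1.22-fold, with adjusted p values below 0.05 but a change smaller than 1.4-fold. *Bcl2* was lower, at 77% of WT, with an adjusted p of 0.0155 and within 1.4-fold. *Bcl2l1*, at 87% of WT, had an adjusted p of 0.101, which was above 0.2 in 3 of the 4 fits that left out 1 library. For *Bid*, *Bad* and *Mcl1*, no difference was detected. A gene was called when its fold change was at least 1.4 and its adjusted p at most 0.2, the thresholds in the paper, in edgeR's quasi-likelihood test with Benjamini-Hochberg adjustment over all 15762 genes, and all adjusted p values below come from this test unless another is named. At these thresholds 2 of 10 members were called, against a background of 20.9% of all tested genes. Both were higher, against a background of 12.8%, and 0 were lower, against 8.04%. The count of 0 was the same by DESeq2 and by edgeR's exact test, and 2 members, *Bcl2* and *Bcl2l1*, were lower at an unadjusted p under 0.05. At an adjusted p of at most 0.2 and any fold change, 5 members were higher and 2 lower, against backgrounds of 20.4% and 19.5%. In 8 of 10 members, both mutant libraries lay beyond both WT libraries, which held for 62.5% of all tested genes. These 8 were 5 of the 7 death-promoting genes, all higher (background 30.9%), and the 3 death-opposing genes, all lower (background 31.6%). The median log2 fold change was 0.33 over the 7 death-promoting genes and -0.20 over the 3 death-opposing genes, and 0.00 over all tested genes.

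**Figure D1:**
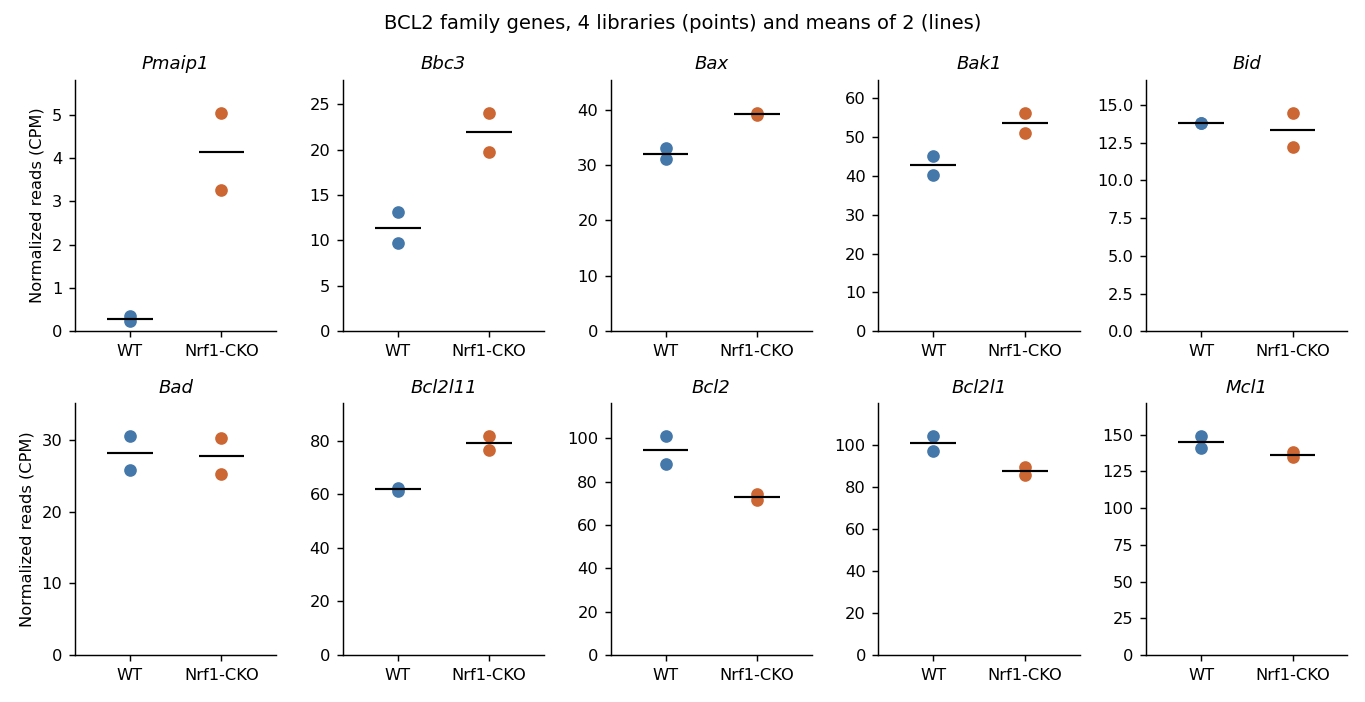
Normalized CPM (vertical axes from 0) of the 10 genes in the 2 WT and 2 Nrf1-CKO libraries, with a point for each library and a line at the mean of each group. The mutant points lie above the WT points for *Pmaip1*, *Bbc3*, *Bax*, *Bak1* and *Bcl2l11*, below them for *Bcl2*, *Bcl2l1* and *Mcl1*, and overlap them for *Bid* and *Bad*.

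*Pmaip1* (ENSMUSG00000024521.8), on chromosome 18 of GRCm38 from 66458533 to 66465565, encodes NOXA, a BH3-only protein that binds MCL1 above all. It had 30 and 17 reads in the WT libraries and 270 and 418 in the Nrf1-CKO libraries. Every mutant library was therefore far above every WT library, and the WT counts, although low, were above the floor of 3 counts. Scaled for library size, its level rose from 0.286 ± 0.0802 to 4.15 ± 1.27 CPM (SD, n = 2), and the log2 fold change was 3.84 (95% interval 2.98 to 4.70, edgeR adjusted p = 0.000252). Only 0.533% of all tested genes had a log2 fold change as high. Leaving out 1 library at a time gave log2 fold changes between 3.49, without mutant replicate 2, and 4.17, without WT replicate 1, and the gene was called each time. The level of *Pmaip1* was higher in mutant replicate 2 and the summed lens level in mutant replicate 1, and the part of lens tissue in the difference was not tested. On the log2 scale of the normalized values deposited by the authors, the difference was 1.10 and still called (adjusted p = 0.000199 from limma).

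*Bbc3* (ENSMUSG00000002083.13), on chromosome 7 from 16308393 to 16318205, encodes PUMA, a BH3-only protein that binds all the death-opposing members. It had 848 and 973 reads in WT and 1642 and 1995 in Nrf1-CKO, so the lowest mutant count was well above the highest WT count. The level rose from 11.4 ± 2.43 to 21.9 ± 3.07 CPM (SD, n = 2), and the log2 fold change was 0.95 (95% interval 0.57 to 1.32, edgeR adjusted p = 0.00364), and 9.61% of all tested genes had a log2 fold change at least as high. With each library left out in turn it lay between 0.75 and 1.18, the lowest without WT replicate 1, and it was called each time. The sum of macrophage and microglia markers was higher in mutant replicate 2 than in mutant replicate 1, as were the levels of *Pmaip1* and *Bbc3*. In WT the sum was higher in replicate 1, at 96.4 against 88.7 CPM, as was *Pmaip1*. *Bbc3*, however, was higher in WT replicate 2, at 13.1 against 9.68 CPM. The part of these cells in the difference of either gene was not tested.

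*Bcl2l11* (ENSMUSG00000027381.16), on chromosome 2 from 128126038 to 128162547, encodes BIM, the BH3-only protein best known for neuronal death after withdrawal of trophic factors. Its reads numbered 5377 and 4610 in WT and 6360 and 6762 in Nrf1-CKO. The WT libraries were almost equal after scaling, at 61.4 and 62.2 CPM, and the mutant libraries were both higher, at 76.6 and 81.7 CPM. The difference, 0.36 on the log2 scale (95% interval 0.18 to 0.53, edgeR adjusted p = 0.00994), was larger than the spread between replicates but smaller than 1.4-fold. Counts per gene do not separate the long and short splice forms of BIM.

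*Bid* and *Bad* had the log2 fold changes nearest to 0 among the 10 members. *Bid* (ENSMUSG00000004446.12), on chromosome 6 from 120891930 to 120916853, encodes the protein that caspase 8 cleaves to link death receptors to mitochondria. It had 1207 and 1021 reads in WT and 1205 and 1011 in Nrf1-CKO, and the scaled levels overlapped, at 13.8 and 13.8 against 14.5 and 12.2 CPM. *Bad* (ENSMUSG00000024959.14), on chromosome 19 from 6941861 to 6951899, encodes the BH3-only protein that growth factor signalling keeps bound to 14-3-3 proteins. It had 2263 and 2265 reads in WT and 2105 and 2500 in Nrf1-CKO, and these levels overlapped as well, at 25.8 and 30.5 against 25.3 and 30.2 CPM. The intervals of the log2 fold change, -0.33 to 0.25 for *Bid* and -0.30 to 0.26 for *Bad*, leave out changes of 1.4-fold in either direction but not smaller ones. Of the exons of these genes, 17.7% of the bases of *Bid* are shared with *Bcl2l13* and 20.5% of those of *Bad* with *Gpr137*, both on the opposite strand. Among the members that differed, 12.2% of the exonic bases of *Bax* are shared with *Gm45808*, 7.35% of those of *Bak1* with *Ggnbp1* and 6.09% of those of *Bcl2* with *D630008O14Rik*, of which *Ggnbp1* and *D630008O14Rik* lie on the opposite strand. Whether strand was used in the counting is not given in the sources used here, so reads from these stretches could not be assigned with certainty.

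The genes of the pore-forming effectors both had higher counts in the mutant. *Bax* (ENSMUSG00000003873.11), on chromosome 7 from 45461697 to 45466898, had 2903 and 2304 reads in WT and 3278 and 3228 in Nrf1-CKO. After scaling, the mutant libraries were close together, at 39.5 and 39 CPM, and above both WT libraries, at 33.1 and 31.1 CPM. The log2 fold change was 0.29 (95% interval 0.10 to 0.48, edgeR adjusted p = 0.0392). *Bak1* (ENSMUSG00000057789.14), on chromosome 17 from 27019810 to 27029009, had 3949 and 2990 reads in WT and 4233 and 4655 in Nrf1-CKO, which came to 45.1 and 40.3 against 51 and 56.3 CPM. Its log2 fold change was 0.33 (95% interval 0.12 to 0.53, edgeR adjusted p = 0.0315). The groups did not overlap for either gene, but both values rested in part on WT replicate 2, without which the log2 fold changes were 0.25 and 0.25 and the adjusted p values 0.223 and 0.224.

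Among the death-opposing genes, *Bcl2* had the largest decrease. *Bcl2* (ENSMUSG00000057329.7), on chromosome 1 from 106538178 to 106714274, encodes the founding member, a guardian that is known to be abundant in young neurons. It had 7704 and 7513 reads in WT and 6169 and 5907 in Nrf1-CKO, that is 88 and 101 against 74.3 and 71.4 CPM. Both mutant libraries were below both WT libraries, and the difference, -0.38 on the log2 scale (95% interval -0.58 to -0.18, edgeR adjusted p = 0.0155), was larger than the spread between replicates but smaller than 1.4-fold. Without WT replicate 2 it was -0.27, with an adjusted p of 0.16. The RGC markers, whose median log2 fold change was -1.70, were lower in the same libraries, and their part in the difference of *Bcl2* was not tested.

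*Bcl2l1* (ENSMUSG00000007659.18), on chromosome 2 from 152780668 to 152831728, had 8509 and 7708 reads in WT and 7095 and 7403 in Nrf1-CKO. The levels of 97.2 and 104 against 85.4 and 89.5 CPM did not overlap. Their difference, -0.20 on the log2 scale (95% interval -0.38 to -0.02), had an edgeR adjusted p of 0.101, which passed above 0.2 without WT replicate 1 (0.201), without WT replicate 2 (0.44) or without mutant replicate 1 (0.251). Counts per gene do not separate the long form, BCL-XL, from the short form, which promotes death. *Mcl1* (ENSMUSG00000038612.16), on chromosome 3 from 95658788 to 95663176, encodes a short-lived guardian on which many progenitor cells depend. It had 12306 and 11058 reads in WT and 11448 and 11146 in Nrf1-CKO, or 141 and 149 against 138 and 135 CPM. Although the mutant libraries were the lower ones, the log2 fold change of -0.09 (95% interval -0.26 to 0.08, adjusted p = 0.464 from edgeR) was not distinguished from 0 by the test.

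**Figure D2:**
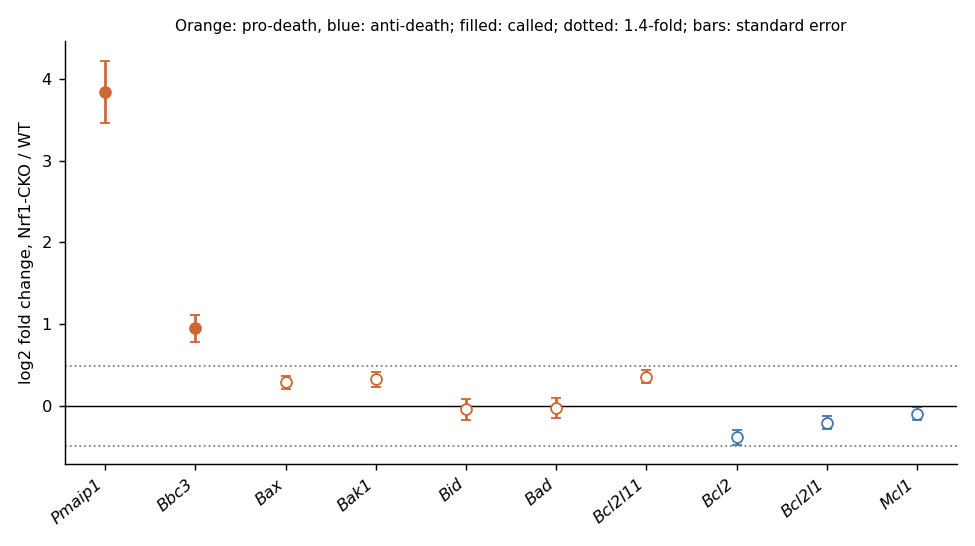
The log2 fold change of each gene between Nrf1-CKO and WT (vertical axis), with bars for the standard error, dotted lines at 1.4-fold and filled points for called genes. *Pmaip1*, at 3.84, and *Bbc3*, at 0.95, lie above the upper dotted line, and the other 8 genes lie between the dotted lines, the death-opposing genes (blue) all below 0.

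To compare genes with each other, the CPM of each was divided by the length of its exons in kb. In WT retinas *Mcl1* had the highest level, 42.4 ± 1.77 CPM per kb (SD, n = 2), followed by *Bcl2l1* at 21.9 ± 1.04, *Bax* at 20.4 ± 0.935 and *Bak1* at 17.7 ± 1.4 CPM per kb. *Bad* at 11 ± 1.3 and *Bcl2* at 10.3 ± 1.03 CPM per kb overlapped between libraries, so their order is not certain, and the nearest libraries of *Bcl2l1* and *Bax*, at 21.2 and 21 CPM per kb, almost met. Below them stood *Bcl2l11* at 7.69 ± 0.0666, *Bbc3* at 5.37 ± 1.14 and *Bid* at 3.88 ± 0.00333 CPM per kb, and *Pmaip1* was by far the lowest at 0.105 ± 0.0293 CPM per kb. In Nrf1-CKO retinas *Pmaip1* was still the lowest member after its increase, at 1.52 ± 0.466 CPM per kb, whereas *Mcl1* was still the highest, at 39.9 ± 0.638. *Bax*, at 24.9 ± 0.198, and *Bak1*, at 22.3 ± 1.56, now stood above *Bcl2l1*, at 19.1 ± 0.628 CPM per kb. *Bcl2* stood below *Bbc3* and *Bcl2l11* in the mutant, at 7.95 ± 0.221 against 10.3 ± 1.45 and 9.86 ± 0.456 CPM per kb, with no overlap between libraries, whereas in WT it stood above both. When the longest annotated transcript was used as the length, *Mcl1* and *Pmaip1* kept their places. *Bax* was again above *Bcl2l1* in the mutant, at 35.7 against 34 CPM per kb, but *Bak1*, at 22.5, was not. With this length *Bad* stood above *Bak1* in WT, at 18.4 against 17.9 CPM per kb.

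**Figure D3:**
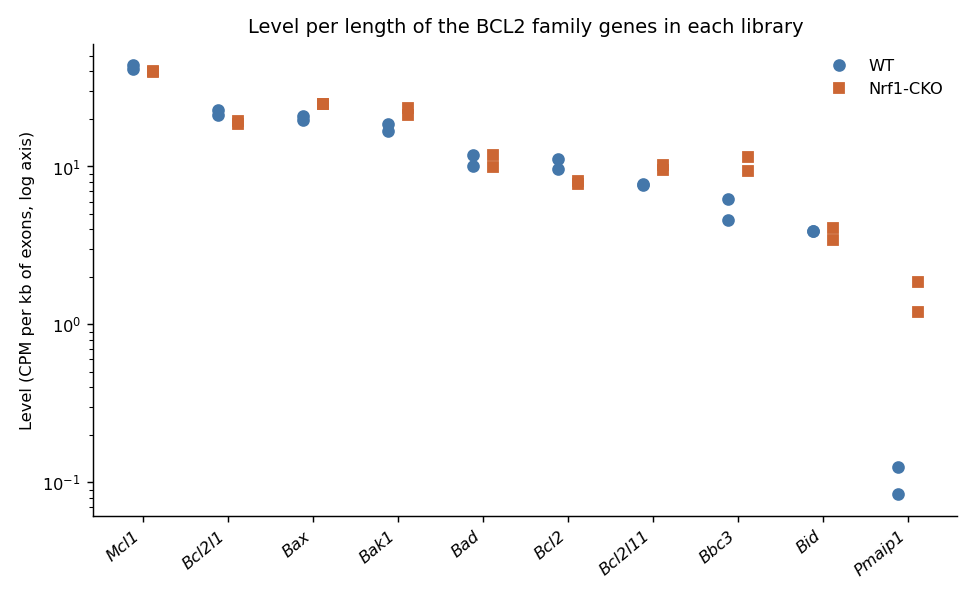
Level of each gene in CPM per kb of exons (log axis), with circles for the 2 WT and squares for the 2 Nrf1-CKO libraries and genes ordered by their WT mean. The levels span from *Mcl1*, near 40 CPM per kb in both groups, to *Pmaip1*, whose squares stand at 1.19 and 1.85 against circles at 0.125 and 0.0839 CPM per kb.

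Ratios within a library do not depend on the scaling between libraries, and they are given as a description with no test, because the genes were picked for their opposed roles. The ratio of *Bax* to *Bcl2*, an effector against a guardian, was 2.19 and 1.78 in WT and 3.09 and 3.18 in Nrf1-CKO, so the mutant mean was 1.58 times that of WT. The ratio of *Bcl2l11* to *Bcl2l1* was 0.361 and 0.342 in WT and 0.512 and 0.522 in Nrf1-CKO, 1.47 times as high in the mutant. The 5 BH3-only genes together, relative to the 3 death-opposing genes together, came to 0.366 and 0.386 in WT and 0.507 and 0.579 in Nrf1-CKO. For *Bax* and *Bak1* together, relative to the same 3 genes, the values were 0.553 and 0.471 in WT and 0.689 and 0.721 in Nrf1-CKO. In all 4 ratios, both mutant libraries were above both WT libraries. This follows from the levels already given, higher above the line and lower below it, so it is not a separate result. The ratio of *Pmaip1* to *Mcl1*, its main partner, was 0.00305 and 0.00192 in WT and 0.0295 and 0.0469 in Nrf1-CKO, so there was much less *Pmaip1* than *Mcl1* RNA per length in every library.

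**Figure D4:**
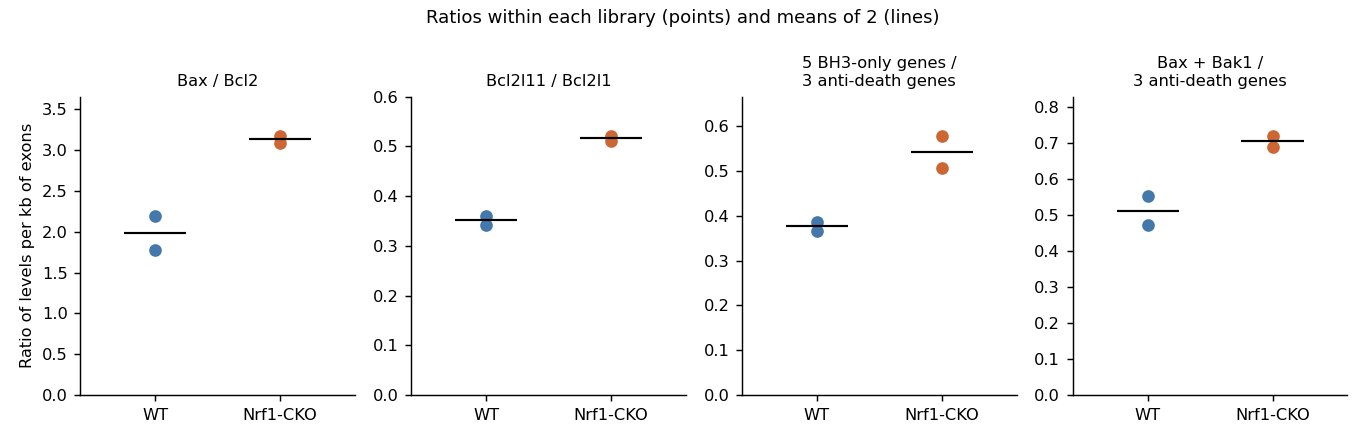
Ratios of levels per kb of exons within each library (vertical axes from 0), with a point for each of the 2 WT and 2 Nrf1-CKO libraries and lines at the group means. The mutant points lie above the WT points in each panel, for *Bax* to *Bcl2* at 3.09 and 3.18 against 2.19 and 1.78.

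Of 16 further genes with BCL2 homology or BH3-like regions, 10 had enough reads to be tested, and 1 was called higher and 1 lower, against 12.8% and 8.04% of all tested genes. Without WT replicate 1, 2 were called higher, and with at least 10 counts required in every library, 0. *Bnip3*, an atypical BH3 protein known for mitophagy and for induction by hypoxia, fell from 2248 and 1857 reads in WT to 1338 and 911 in Nrf1-CKO (log2 fold change -0.90, edgeR adjusted p = 0.00472). The gene called higher, named after its values were seen, was *Bcl2a1b*, a death-opposing member known from blood cells. It had 8 and 18 reads in WT and 123 and 93 in Nrf1-CKO, with a log2 fold change of 2.97 and a standard error of 0.58 (edgeR adjusted p = 0.00666), but it passed the filter on low counts through the mutant libraries, so its call adds nothing to the count. Its copies *Bcl2a1a*, *Bcl2a1c* and *Bcl2a1d* are nearly identical, so its reads are uncertain, and the macrophage and microglia markers moved with it, a part that was not tested. The other tested genes, among them *Bcl2l2*, *Bok*, *Hrk* and *Bmf*, were not called, and their log2 fold changes lay between -0.32 and 0.34.

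Downstream of the mitochondria, 19 genes of the apoptosome, the caspases and their inhibitors were examined, and 1 was called higher and 0 lower, against 12.8% and 8.04% of all tested genes. Their median log2 fold change was -0.02, and at an adjusted p of at most 0.2 and any fold change 3 were higher and 5 lower, against 20.4% and 19.5%. The count of 0 was the same by DESeq2 and by edgeR's exact test, and 2 genes were lower and 3 higher at an unadjusted p under 0.05. The gene called was *Casp8*, the initiator caspase of death receptors that cleaves BID, which rose from 577 and 490 reads to 816 and 915 (log2 fold change 0.66, edgeR adjusted p = 0.0101). With glmTreat and on the deposited normalized values, 0 genes of this list were called, and without mutant replicate 2 the count called higher was 2. Genes of the apoptosome itself, named after their values were seen, had log2 fold changes of 0.03 for *Cycs* (cytochrome c), -0.16 for *Apaf1* and -0.10 for *Casp9*, none of them called. Of 11 tested genes whose products bind family members or control their turnover, such as *Vdac2*, which holds BAK1 at the membrane, and *Huwe1*, a ligase of MCL1, 0 were called in either direction, against 12.8% higher and 8.04% lower of all tested genes, and 0 also by DESeq2 and by edgeR's exact test. At an unadjusted p under 0.05, 3 of these were lower and 0 higher, and their median log2 fold change was -0.12. The count called lower was 1 without WT replicate 2, without mutant replicate 2 or with library sizes alone.

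**Figure D5:**
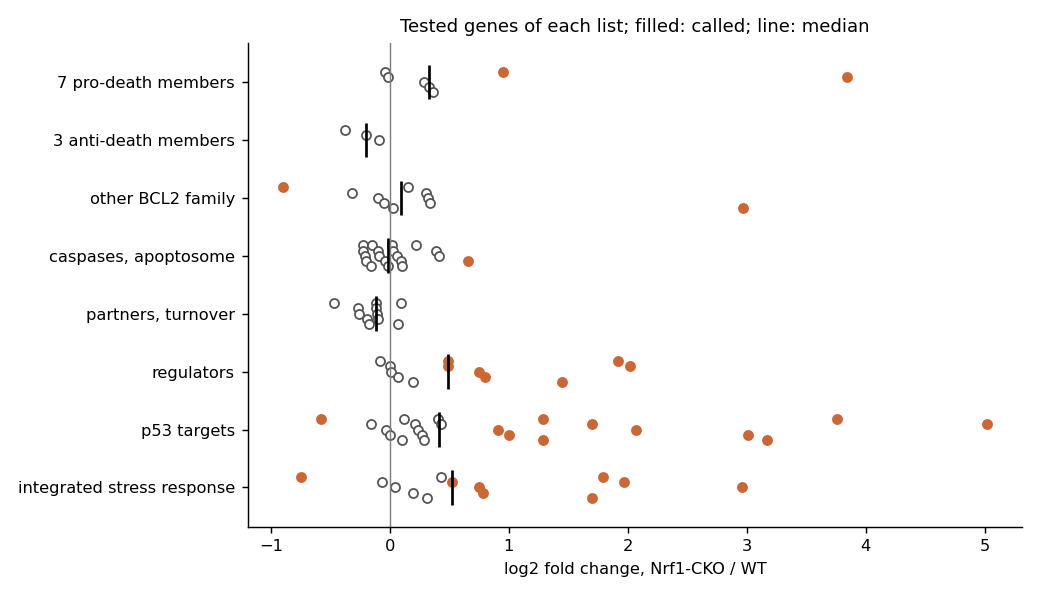
The log2 fold changes between Nrf1-CKO and WT (horizontal axis) of the tested genes in each list, with a point for each gene, filled where called, and a line at the median of each list. The medians of the p53 targets and of the integrated stress response, 0.42 and 0.52, lie above 0, whereas those of the caspases and of the partners, -0.02 and -0.12, lie at or just below 0.

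Upstream of the family, 12 transcription factors known to regulate its members were examined, and 7 were called higher and 0 lower, against 12.8% and 8.04% of all tested genes. Of these, 4 were called higher without mutant replicate 1, 4 with glmTreat and 2 on the deposited normalized values. The count of 0 was the same at an unadjusted p under 0.05, by DESeq2 and by edgeR's exact test, and the median log2 fold change was 0.49. *Trp53*, the gene of p53, had 5892 and 4683 reads in WT and 5384 and 5975 in Nrf1-CKO, and with a log2 fold change of 0.07 (adjusted p = 0.609 from edgeR) its groups overlapped. *Foxo3* was likewise not called, with 5811 and 5604 reads against 5721 and 6111 and a log2 fold change of 0.01. *Foxo1*, named after its values were seen as the other FOXO factor examined, rose from 1143 and 842 to 1584 and 1262 reads (log2 fold change 0.49, edgeR adjusted p = 0.0379). *Atf4*, the factor of the integrated stress response, had a log2 fold change of 0.19 and was not called. Its partner and target *Ddit3*, which encodes CHOP and is known to induce *Bcl2l11* and *Bbc3*, rose from 642 and 534 to 901 and 1129 reads (log2 fold change 0.75, adjusted p = 0.00759 from edgeR). The largest increases among these factors at a mean of at least 1 CPM were those of *Egr1*, *Trp63* and *Myc*, with log2 fold changes of 2.02, 1.45 and 0.80. *Trp63*, known as a factor of the surface ectoderm, had only 74 and 29 reads in WT against 182 and 101 in the mutant.

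Target genes of p53 other than the family members were called higher in 10 of 22 cases and lower in 1, against 12.8% and 8.04% of all tested genes, their median log2 fold change being 0.42. *Eda2r*, a death receptor, rose from 228 and 174 reads to 1687 and 2007 (log2 fold change 3.17, edgeR adjusted p = 7.02e-05). *Cdkn1a*, which encodes the cell cycle inhibitor p21, rose from 247 and 109 reads to 1311 and 1572 (log2 fold change 3.01, adjusted p = 0.000178 from edgeR). *Phlda3*, an inhibitor of Akt, and *Sesn2*, a stress-induced regulator of mTOR, rose with log2 fold changes of 2.07 and 1.70. In contrast, *Rrm2b*, a subunit of ribonucleotide reductase, fell by 0.58 on the log2 scale, a call that was lost without mutant replicate 2, with glmTreat and on the deposited normalized values. *Mdm2*, named after its values were seen as the classical feedback target, was not called at 0.10. Of 13 tested genes of the integrated stress response, 7 were called higher and 1 lower, against the same shares, their median log2 fold change being 0.52. *Atf3*, *Chac1* and *Trib3*, 3 targets of ATF4, rose with log2 fold changes of 2.96, 1.97 and 1.79, and *Vldlr*, a lipoprotein receptor, fell by 0.75 on the log2 scale. *Fas*, a p53 target named after its values were seen because its WT count was 1 and 0 reads against 21 and 20, passed the filter on low counts through the mutant libraries, as did *Gdf15* with 4 and 2 reads against 25 and 61, so their calls add nothing to the count. Without them, with at least 10 counts required in every library, 8 p53 targets were called higher. *Sesn2* belongs to both lists, and *Atf4* and *Ddit3* to the lists of regulators and of the stress response.

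The genes whose pattern over the 4 libraries was most like that of *Pmaip1* were found by the Euclidean distance between log2 CPM values centred on their mean, among 13430 tested genes with at least 1 CPM on average. The nearest were *Tagln*, an actin-binding protein of smooth muscle, at a distance of 0.307, *Spp1*, which encodes osteopontin, at 0.477, and *Clec7a*, a receptor of myeloid cells, at 0.584. *Eda2r* and *Cdkn1a* followed at 0.699 and 0.769. *Tagln* had 149 and 91 reads in WT and 1144 and 1571 in Nrf1-CKO, a log2 fold change of 3.48. These distances rest on 4 libraries in 2 groups, so a gene with an increase of like size and a like order of replicates comes near. *Cryaa*, a lens gene with a larger log2 fold change of 4.38, was not among the nearest. Its level was higher in mutant replicate 1 than in replicate 2, at 4010 against 1697 CPM.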

How the data were processed

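RNA-seq counts of 4 libraries of E13.5 retinas, 2 WT and 2 Nrf1-CKO, were analysed. Alignment to mm10 used Tophat (listed as TopHat2 2.7.2 in the submitters' processing notes), genes were counted with HTSeq, and the whole-number counts were deposited by the authors. The authors also deposited normalized values on a log2 scale, and the submitters' notes list DESeq and limma without saying which step each served. The summary rows of HTSeq, 74.0% to 75.0% of all entries, stayed out of library sizes and tests. Alignments that were not unique made up 54.61% to 58.05% of all entries, so genes with duplicated sequence may be undercounted. The header lines hold more cells than the data lines, so the 4 library names were assigned to the 4 value columns in the order in which they stand.

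Genes were filtered with filterByExpr (minimum count 10), scaled with TMM factors to CPM and tested by quasi-likelihood with edgeR 4.0.16 (R 4.3.3) and Benjamini-Hochberg adjustment over 15762 genes. The paper's Cuffdiff works from aligned reads, which were not used here. Standard errors were derived from each F statistic, and intervals from the t distribution with the degrees of freedom of that test. The fit was tested on simulated data. Alternatives were DESeq2 1.42.0, edgeR's exact test, glmTreat, other scalings and filters, the replicate number as a block, a stricter threshold, the deposited log2 values with limma 3.58.1, and each library left out. The longest transcript as the length was chosen after seeing the data. Exons came from GENCODE M21 (GRCm38, the assembly of mm10), of which the union per gene gave lengths.

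The members, lists, marker genes and promoter motifs were chosen with earlier results of these data known. Genes named from the pathway lists were the called ones with a mean of at least 1 CPM, at most 4 per direction by size of change, and *Trp53*, *Ddit3*, *Atf4* and *Foxo3*. Other genes of these lists, such as *Bcl2l2*, *Bok*, *Hrk*, *Bmf*, *Vdac2*, *Huwe1* and *Gdf15*, were named outside this rule. From marker lists, at most the 2 most abundant genes were named. Intervals cover counting error and the spread of 2 libraries per group, and PCR copies are not independent molecules.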

Additional observations from a re-analysis of the deposited data

How the results depend on the processing

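*Pmaip1* and *Bbc3* were called higher, and no other member was called, under all 15 alternatives run, with log2 fold changes between 1.10 and 4.17 for *Pmaip1* and between 0.70 and 1.18 for *Bbc3*. The lowest of each came from the deposited normalized values. On these values the changes of *Bax* and *Mcl1* were also slightly nearer to 0, at 0.25 against 0.29 and -0.079 against -0.088. How these values were scaled is not given in the sources used here. Their differences may therefore not be the same measure as log2 fold changes from counts, and the cause was not tested. With each library left out in turn, 3 to 5 members were higher and 1 to 2 lower at an adjusted p of at most 0.2, and with 1 library in a group that library is assumed to vary like the others. The log2 fold changes of *Bid* and *Bad*, which were near 0, turned positive in places. With each library left out, that of *Bid* ranged from -0.17 to 0.073, the latter without mutant replicate 2. That of *Bad* ranged from -0.16 to 0.11, with 0.11 without WT replicate 2 and 0.10 without mutant replicate 1, and was 0.019 with upper-quartile factors.

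On the deposited normalized values, 14 genes of the pathway lists were called higher, against 24 on the counts, and 945 of all genes were called higher and 723 lower, against 2024 and 1268. With glmTreat, where the null is a change of up to 1.4-fold, these were 1188 and 743. With the replicate number as a block, 2 members were called higher and 0 lower, as without it, and 1970 and 1256 of all genes. The deviations of same-numbered libraries from their group means had a correlation of -0.0025, so the numbers gave no sign of a pairing. Depth limited *Pmaip1* most, whose WT libraries had 30 and 17 reads.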
